A study of Saccharomyces cerevisiae BY4741 with 9 samples.

Results

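The histone genes of budding yeast were examined in wild type (WT) cells and in cells carrying scc2-4, a mutant allele of SCC2, whose product loads cohesin onto chromosomes together with Scc4. The set was chosen by gene name and holds 10 of the 7130 features in the deposited table: HTA1 and HTA2 for H2A, HTB1 and HTB2 for H2B, HHT1 and HHT2 for H3, HHF1 and HHF2 for H4, HTZ1 for the variant H2A.Z and HHO1 for the linker histone H1. Since scc2-4 alters the protein, no transcript level checks the genotype labels. All strains are of the BY4741 background, a laboratory strain derived from S288C. Both genotypes were grown in YPD+CSM, rich medium with an amino acid supplement, and harvested while growing exponentially (optical density 0.7); the growth temperature is not stated in the labels. RNA sequencing libraries were made from 3 WT and 3 scc2-4 samples, which the series' design calls biological replicates, and each held between 14730000 and 21930000 reads assigned to features. The column names of the WT libraries do not give the preparation, and they were taken as ribo-depleted, as the scc2-4 libraries are; the 3 WT libraries of total RNA were not analysed here. WT replicate 1 stood apart, with a correlation across features of 0.977 and 0.968 with the other WT libraries on the log2 scale against 0.993 between those. Values without a library are given where leaving it out changes a call or moves a value by over 1.5 times.

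Core histones form the octamer that DNA wraps around in a nucleosome, and yeast keeps 2 gene copies of each. The copies lie in 4 divergent pairs, HTA1-HTB1, HTA2-HTB2, HHT1-HHF1 and HHT2-HHF2, in which both genes are read outward from a shared intergenic region. Transcription of these pairs is confined largely to the G1/S transition and S phase. It is activated by Spt10 with Spt21 and by the G1/S factors SBF and MBF, and the HIR complex represses every pair except HTA2-HTB2 outside S phase. HTZ1 and HHO1 stand alone. H2A.Z replaces H2A in nucleosomes at promoters, where the SWR1 complex deposits it, and Hho1 binds linker DNA.

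The shared upstream regions are shown first, because they tie each gene to its divergent partner. The core letters of the histone upstream activating element bound by Spt10, searched as TTCCNNNNNNTTCNC on both strands, occurred in all 4 intergenic regions, which are 817, 699, 646 and 676 bases long for HTA1-HTB1, HTA2-HTB2, HHT1-HHF1 and HHT2-HHF2. HTA1-HTB1 had 2 matches, on opposite strands, and the other pairs 1 each. Of 603 divergent intergenic regions of at least 600 bases, 32 (5.31%) held a match in their central 600 bases, and these 32 include the 4 histone regions. The pattern is that of an element known from histone upstream regions, so its presence in all 4 is no independent result. Capitals mark the matches in the windows below, read 5′ to 3′ from the RefSeq R64 assembly, which is the sacCer3 sequence; the HTA1-HTB1 window (chrIV:915079-915186) is on the plus strand, and those of HTA2-HTB2 (chrII:236073-236157), HHT1-HHF1 (chrII:255909-255993) and HHT2-HHF2 (chrXIV:576311-576395) are on the minus strand.
HTA1-HTB1: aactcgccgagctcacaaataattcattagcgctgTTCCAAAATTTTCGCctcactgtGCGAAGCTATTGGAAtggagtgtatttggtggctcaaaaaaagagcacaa
HTA2-HTB2: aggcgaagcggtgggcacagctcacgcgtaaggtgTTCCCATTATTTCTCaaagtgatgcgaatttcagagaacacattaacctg
HHT1-HHF1: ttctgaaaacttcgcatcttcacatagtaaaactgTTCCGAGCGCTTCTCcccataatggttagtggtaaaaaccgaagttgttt
HHT2-HHF2: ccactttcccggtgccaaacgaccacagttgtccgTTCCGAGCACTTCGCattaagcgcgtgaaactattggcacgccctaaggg
The SBF-type motif CNCGAAA, searched on both strands, had 3 matches in the HTA1-HTB1 region, 2 in HHT2-HHF2 and none in the other regions, against 25.9% of the same 603 central windows with at least 1. None of these matches overlaps one of the Spt10 motif. A match of either kind describes the letters only.

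Reads can be given to one copy or the other only where the copies differ. HTA1 and HTA2 differ at 25 of 399 coding bases, HTB1 and HTB2 at 48 of 396, HHT1 and HHT2 at 28 of 411, and HHF1 and HHF2 at 8 of 312. The stretches of 100 coding bases with the most differences are shown for H2A and H2B. Their copy shares, given below, did not overlap between genotypes, though no call was possible. Capitals mark the bases that differ between the copies. The H2A stretch covers coding bases 156 to 255 (HTA1 at chrIV:915685-915784, plus strand; HTA2 at chrII:235538-235637, minus strand), and the H2B stretch bases 3 to 102 (HTB1 at chrIV:914611-914710, minus strand; HTB2 at chrII:236494-236593, plus strand).
HTA1: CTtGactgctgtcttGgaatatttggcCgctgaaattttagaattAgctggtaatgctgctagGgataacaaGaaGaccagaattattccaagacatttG
HTA2: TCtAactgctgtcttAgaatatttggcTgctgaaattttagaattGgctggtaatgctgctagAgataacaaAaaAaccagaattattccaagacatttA
HTB1: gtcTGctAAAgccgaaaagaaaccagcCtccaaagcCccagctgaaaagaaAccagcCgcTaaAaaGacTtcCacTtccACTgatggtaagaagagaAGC
HTB2: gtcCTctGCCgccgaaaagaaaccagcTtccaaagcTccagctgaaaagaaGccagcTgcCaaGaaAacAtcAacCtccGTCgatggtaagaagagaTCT
For reads of 36 bases, 100% of start positions within HTB1 and HTB2 are unique in the genome, 90.1% within HTA1 and HTA2, 79.3% within HHT1 and HHT2 and 66.4% within HHF1 and HHF2. At 75 bases the share is 97.5% for the H4 genes and 100% for the others. The read length and the treatment of reads with several matches are not stated in the labels. Levels of the H2A, H3 and H4 copies may therefore be understated and are less certain than those of H2B. No member overlaps another feature of the table.

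In WT, the H3 gene HHT2 had the highest level per length and the H2B gene HTB1 the lowest among the core genes. The unit is RPKM, the read number divided by the length of the gene in kilobases and by the library's assigned reads in units of 1000000. WT means in falling order were 1279 for HHT2, 1150.3 for HTA1, 998 for HHF2, 768 for HHT1, 632 for HHF1, 584 for HTA2, 459 for HTB2 and 279 for HTB1. Among neighbours in this order, the WT libraries overlapped between HHT2 and HTA1, HTA1 and HHF2, HHF1 and HTA2, and HTA2 and HTB2. All 8 core genes lay between the 89.0 and 98.4 percentile of the table's features in every library. HTZ1 (65.4) and HHO1 (47.8) were far lower, and their WT libraries overlapped. In scc2-4 the order was the same except that HTA1, at 710 RPKM, came after HHF2, at 786, and these overlapped. Each member had at least 317 reads in each library, so counting error was at most 5.62% of a value, and at most 3.04% for the core genes.

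**Figure D1:**
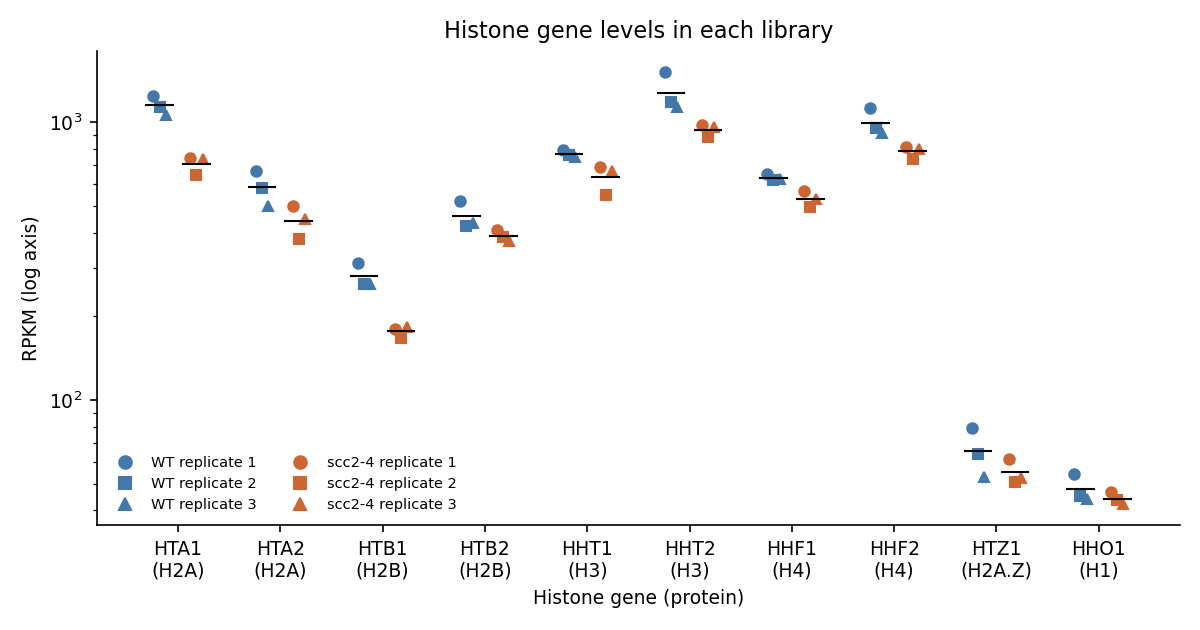
RPKM (log axis) of the 10 histone genes in each of the 6 libraries; points are libraries, marked by genotype and replicate, and black lines are means of 3. Every scc2-4 library lies below every WT library for the 8 core genes, though for HTA2 by less than counting error, and the genotypes overlap for HTZ1 and HHO1.

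All 8 core histone genes had lower levels in every scc2-4 library than in every WT library. A separation in that direction was seen for 23.6% of the 6559 features tested. For HTA2 the gap was smaller than counting error (at most 1.94% of a value), with 500.6 RPKM in WT replicate 3 and 499.7 in scc2-4 replicate 1. HTZ1 and HHO1 overlapped between genotypes. WT replicate 1 was the highest library for 10 of 10 members, and scc2-4 replicate 2 the lowest for 8. In limma on log2(RPKM + 1) values centred on each library's median feature, 3 of the 10 fell, HTA1, HTB1 and HHT2, none rose, and 7 did not pass an adjusted p of 0.05; 32.5% of all features passed, 15.0% lower and 17.5% higher. The count was 4 without WT replicate 1, where the H4 gene HHF2 also passed, and 2 without WT replicate 2 or any scc2-4 replicate, where HTA1 and HTB1 remained. The median log2 change of the 10 was -0.30, with 10 of 10 below 0, against 0.047 over all features, of which 3004 of 6559 were below 0. Features of chromosome IX had a median of 0.81, with 174 of 244 higher and 5 lower, and those of chromosome I 0.27. No histone gene lies on these chromosomes, and the cause of their shift was not tested. Without them 1934 of 6209 features passed, 1021 higher and 913 lower, and the same 3 members fell. In bulk cultures, fewer cells in S phase and less histone RNA per cell cannot be told apart.

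The HTA1-HTB1 pair on chromosome IV had the lowest log2 changes of the set, and both genes fell. HTA1 (YDR225W, sacCer3 chromosome IV, 915530 to 915928, plus strand), a single-exon H2A gene, stood at 1249, 1136 and 1065.5 RPKM in the WT libraries, in the order of their replicate numbers, and at 743, 647 and 738 in the mutant libraries. The same order is used below. The genotypes were far apart, the lowest WT library exceeding the highest mutant library. It fell 1.61-fold, a log2 change of -0.69 ± 0.11 (SE; adjusted p = 0.00692, limma), from a mean of 1150.3 ± 92.5 to 710 ± 54.2 RPKM (SD, n = 3 per genotype). HTB1 (YDR224C, chromosome IV, 914317 to 914712, minus strand), its divergent H2B partner, stood at 312, 262 and 262 RPKM in WT and 181, 168 and 183 in scc2-4. The separation was again complete, with the mutant libraries close together. HTB1 fell 1.55-fold (log2 change -0.64 ± 0.10, adjusted p = 0.00663, limma). Both calls held in each fit that left out 1 library, with adjusted p up to 0.0397 and 0.0396. The level of HTA1 was 4.14 ± 0.18 times HTB1 in WT and 4.00 ± 0.13 times in scc2-4 (SD, n = 3), with overlapping libraries. The ratio of partners also overlapped between genotypes for HTA2-HTB2 and HHT1-HHF1. That of HHT2 over HHF2 did not, at 1.28 ± 0.061 in WT and 1.20 ± 0.0021 in scc2-4. These ratios were not tested.

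The HTA2-HTB2 pair on chromosome II codes for the same proteins apart from a few residues and had log2 changes nearer to 0. HTA2 (YBL003C, 235394 to 235792, minus strand) stood at 669, 582 and 501 RPKM in WT and 499.7, 380.4 and 448 in scc2-4. The lowest WT and the highest mutant library nearly touched. Its log2 change was -0.39 ± 0.14 and did not pass (adjusted p = 0.0683, limma). HTB2 (YBL002W, 236492 to 236887, plus strand) stood at 521, 422 and 435 RPKM in WT and 408, 385 and 374 in scc2-4. Its libraries were separated by a small gap, and the log2 change of -0.22 ± 0.10 did not pass (adjusted p = 0.129, limma; 95% interval -0.46 to 0.018).

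**Figure D2:**
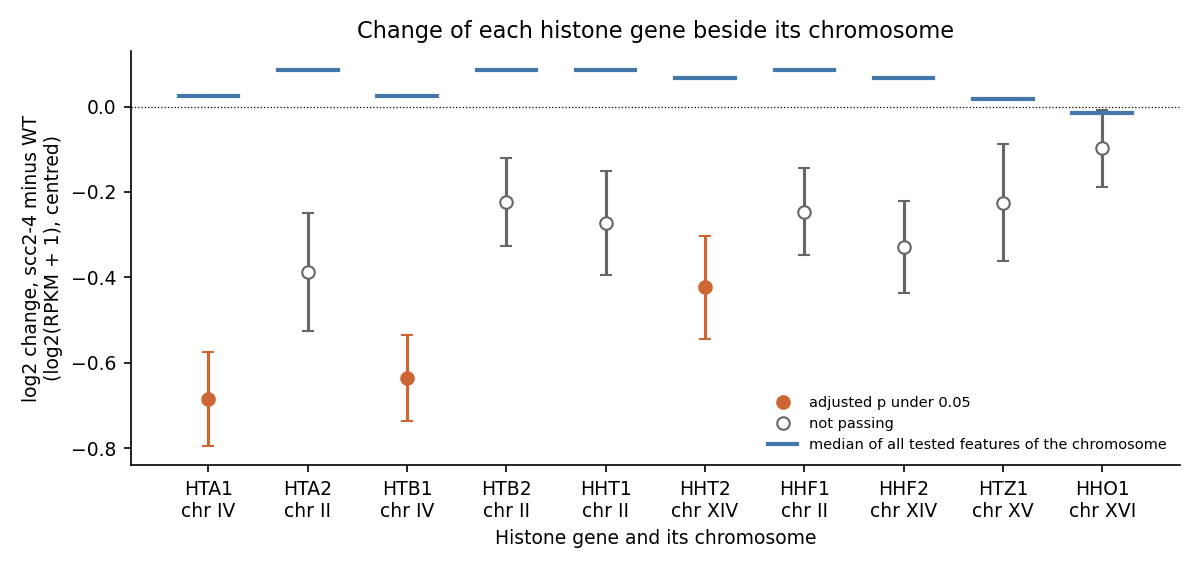
Log2 change (scc2-4 minus WT, centred log2(RPKM + 1), points with SE bars) of each histone gene, with the median change of all tested features of its chromosome as a blue line. HTA1 and HTB1 are lowest, at -0.69 and -0.64, and all 10 genes lie below their chromosome's median.

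The H3 and H4 genes had log2 changes between -0.25 and -0.42, and 1 of these genes passed. HHT2 (YNL031C, chromosome XIV, 575640 to 576050, minus strand), an H3 gene, stood at 1514, 1185 and 1139 RPKM in WT and 979, 884 and 958 in scc2-4. WT replicate 1 was well above the other WT libraries, and all 3 WT values exceeded the mutant ones. HHT2 fell 1.34-fold (log2 change -0.42 ± 0.12, adjusted p = 0.0354, limma). That call ended without WT replicate 2 (adjusted p = 0.0688), when scc2-4 replicate 1, 2 or 3 was left out (0.0956, 0.129 and 0.0922) and with quantile normalization (0.0598), in a range from 0.0294 over the alternatives. HHF2 (YNL030W, chromosome XIV, 576727 to 577038, plus strand), its H4 partner, stood at 1123, 951 and 919 RPKM in WT and 818, 741 and 799.7 in scc2-4. The mutant libraries lay close together below the WT ones, and the log2 change of -0.33 ± 0.11 did not pass (adjusted p = 0.0531, limma), though it did without WT replicate 1 (0.0497; 0.0406 to 0.176 over the alternatives).

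HHT1 (YBR010W, chromosome II, 256331 to 256741, plus strand), the other H3 gene, stood at 793, 759.7 and 752 RPKM in WT and 689.7, 548 and 665 in scc2-4. The WT libraries agreed closely and the spread lay in the mutant, where replicate 2 was low. HHT1 had a log2 change of -0.27 ± 0.12 (adjusted p = 0.124, limma), and of -0.17 without scc2-4 replicate 2 (0.363; 0.0951 at the lowest without 1 library). HHF1 (YBR009C, chromosome II, 255373 to 255684, minus strand), the other H4 gene, stood at 650.2, 621 and 626 RPKM in WT and 566, 496 and 528 in scc2-4. Its pattern followed that of HHT1, with a log2 change of -0.25 ± 0.10 (adjusted p = 0.101, limma). Neither passed with all 6 libraries or in any alternative run.

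The genotypes overlapped for both genes outside the divergent pairs. HTZ1 (YOL012C, chromosome XV, 303579 to 303983, minus strand) stood at 79.3, 64.0 and 52.8 RPKM in WT and 61.5, 50.5 and 52.6 in scc2-4. WT replicate 3 lay below scc2-4 replicate 1, and the log2 change of -0.22 ± 0.14 did not pass (adjusted p = 0.237, limma). Without WT replicate 1 the change was -0.12, and without WT replicate 3 it was -0.34, with adjusted p from 0.0815 to 0.478 when 1 library was left out. HHO1 (YPL127C, chromosome XVI, 308828 to 309604, minus strand) stood at 54.2, 45.0 and 44.1 RPKM in WT and 46.5, 43.5 and 42.3 in scc2-4. Apart from WT replicate 1 the libraries lay within a narrow band, and the log2 change was -0.098 ± 0.090 (adjusted p = 0.417, limma; -0.047 without WT replicate 1). CSE4, the centromeric H3 variant and no member of the set, had 16.1 ± 2.27 RPKM in WT and 16.8 ± 1.98 in scc2-4 (log2 change 0.078 ± 0.13, adjusted p = 0.656, limma), and its sign turned without WT replicate 2 or scc2-4 replicate 3.

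Summed over both copies, H2A differed most between the genotypes. Its summed RPKM was 1918, 1719 and 1566 in WT and 1243, 1028 and 1186 in scc2-4, 33.6% lower by the means. H2B was 23.3% lower (738 ± 82.8 to 566 ± 19.6), H3 23.1% lower (2048 ± 226 to 1575 ± 126) and H4 19.3% lower (1629.7 ± 125 to 1316 ± 74.6; SD, n = 3). For each of the 4 histones all mutant sums lay below all WT sums, which follows from the separation of each single copy and adds nothing to it. The 8 core genes together went from 6149 ± 600.3 to 4609 ± 327 RPKM, 25.1% lower. These sums over chosen genes were not tested.

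**Figure D3:**
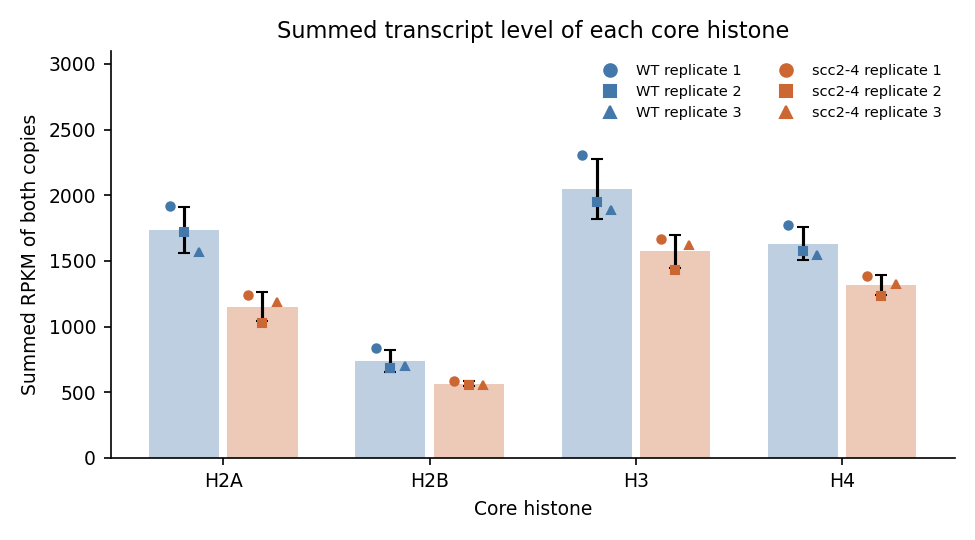
Summed RPKM of both gene copies of each core histone; bars are means of 3 libraries, error bars are SD, and points are libraries. H2A goes from a mean of 1734 to 1152, and the genotypes do not overlap for any of the 4 histones, which follows from the separation of each single copy.

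By divergent pair, the summed RPKM was 37.9% lower for HTA1-HTB1 (1429 ± 120.0 to 887 ± 62.4), 24.2% for HHT2-HHF2 (2277 ± 314 to 1727 ± 90.3), 20.3% for HTA2-HTB2 (1043 ± 131 to 831 ± 71.7) and 16.9% for HHT1-HHF1 (1400.4 ± 37.1 to 1164 ± 109). The shares of HTA1 and of HTB1 were both lower in scc2-4. HTA1 gave 65.1%, 66.1% and 68.0% of H2A transcripts per length in WT and 59.8%, 63.0% and 62.3% in scc2-4, a difference of -4.75 percentage points. HTB1 gave 37.5%, 38.3% and 37.6% of H2B in WT and 30.7%, 30.3% and 32.9% in scc2-4, a difference of -6.48 points. Neither share overlapped between genotypes. The exact two-sided permutation test gave p = 0.1 for both, which is the smallest that 3 against 3 libraries allow, so no call was possible. For H3, HHT1 gave 37.7% ± 2.93 in WT and 40.2% ± 1.69 in scc2-4 (exact permutation p = 0.3), and for H4, HHF1 gave 38.9% ± 1.99 and 40.2% ± 0.583 (exact permutation p = 0.4; SD, n = 3). These libraries overlapped, with WT replicate 1 lowest for both. The HHT1 difference was 2.46 percentage points with all libraries and 0.778 without WT replicate 1. That of HHF1 was 1.35 points, 0.238 without WT replicate 1 and 2.165 without WT replicate 3. The 4 shares were the only ones compared.

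**Figure D4:**
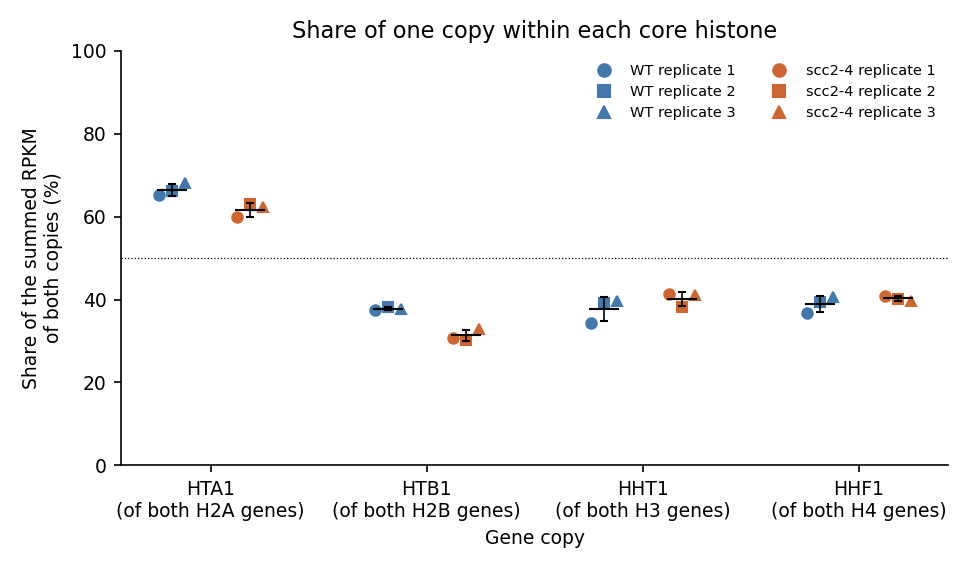
Share (%) of the summed RPKM of both copies given by HTA1, HTB1, HHT1 and HHF1 in each library; points are libraries, black marks are means with SD of 3, and the dotted line is an equal share. HTA1 goes from 66.4% to 61.7% and HTB1 from 37.8% to 31.3%, while the H3 and H4 shares overlap between genotypes.

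Around the histone loci, chromosome medians lay close to 0 and most adjacent genes did not pass the test, as was the case for most features. The median log2 change of all tested features was 0.024 on chromosome IV, 0.086 on II, 0.067 on XIV, 0.018 on XV and -0.016 on XVI. Each histone gene lay below its chromosome's median, from 0.71 below for HTA1 to 0.081 below for HHO1. Relative to that median, HHO1 had -0.043 without WT replicate 1 and -0.129 without scc2-4 replicate 1. HTZ1 had -0.243 with all libraries, -0.127 without WT replicate 1 and -0.368 without WT replicate 3. The 12 nearest protein-coding genes on either side of the pairs and of HTZ1 and HHO1 lay 167 to 1366 bases away. Of these, 1 rose, 1 fell and 10 did not pass, against 17.5% of all features that rose and 15.0% that fell. Next to HTA1-HTB1, ADK1, the adenylate kinase gene, stood at 489 ± 37.7 RPKM in WT and 567 ± 50.6 in scc2-4 (log2 change 0.22 ± 0.13, adjusted p = 0.229, limma), and CRF1 on the other side had a change of 0.24 ± 0.21. Leaving out WT replicate 1 gave 0.14 for ADK1 and 0.40 for CRF1, leaving out scc2-4 replicate 3 gave 0.13 for ADK1, and leaving out WT replicate 3 gave 0.0049 for CRF1. The gene that rose, KTR5 beside HHF2 (0.48 ± 0.13, adjusted p = 0.0279, limma), overlaps YNL028W, so some of its reads may belong to that feature. The extent of the overlap was not examined. The gene that fell, HRD1 beside HTZ1 (-0.42 ± 0.11, adjusted p = 0.0276, limma), encodes a ubiquitin ligase of the endoplasmic reticulum. Among genes that did not pass, UTP20 and ECM15 beside HTA2-HTB2 had changes of 0.54 and -0.0077, FLR1 and IPP1 beside HHT1-HHF1 -0.39 and 0.28, SIW14 beside HHT2 0.13, PLB3 beside HTZ1 0.21, and TBF1 and NAN1 beside HHO1 0.16 and 0.75. Without WT replicate 1 the change was 0.21 for UTP20, 0.14 for ECM15, 0.22 for SIW14 and 0.043 for TBF1. SIW14 had 0.087, 0.082 and 0.075 without WT replicate 2, WT replicate 3 and scc2-4 replicate 3, TBF1 0.27 without WT replicate 3, and PLB3 0.13 without scc2-4 replicate 2. The small change of ECM15 lay between -0.11 and 0.14 when 1 library was left out. KTR5 no longer passed with scc2-4 replicate 1, 2 or 3 left out (adjusted p = 0.0716, 0.0661 and 0.103; from 0.0207 over the alternatives), nor did HRD1 without these or WT replicate 2 (0.0630, 0.0942, 0.0969 and 0.0572; from 0.0168) or without centring (0.0524). FLR1 passed without WT replicate 3 (0.0284) and with quantile normalization (0.0371; to 0.165), UTP20 without WT replicate 3 (0.0492; to 0.293) and NAN1, at 0.41, without WT replicate 1 (0.0124; to 0.176) or, at 0.96, without WT replicate 3 (0.0300).

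**Figure D5:**
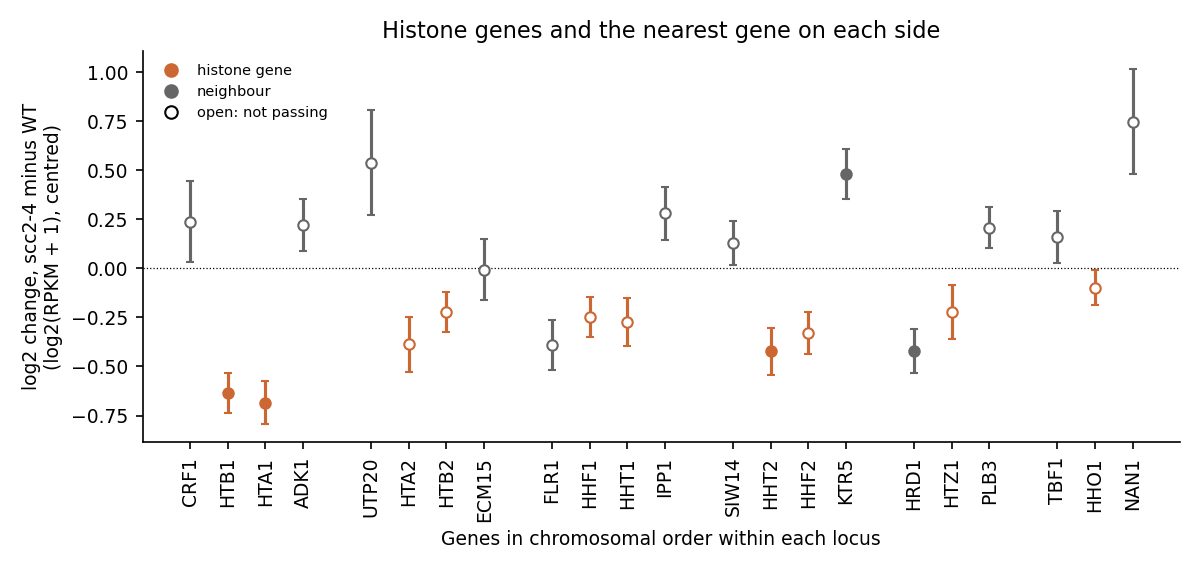
Log2 change (scc2-4 minus WT, points with SE bars) of the histone genes, in orange, and the nearest protein-coding gene on each side, in grey, in chromosomal order; filled points passed an adjusted p of 0.05. The 12 neighbours range from -0.42 to 0.75, and 1 rose and 1 fell, where 17.5% of all features rose and 15.0% fell.

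The pairs also differ in position. HTA2-HTB2 lies 1320 bases from the centromere of chromosome II and HHT1-HHF1 17.1 kb from it, on its other side. HHT2-HHF2 lies 51.7 kb from the centromere of chromosome XIV, and HTA1-HTB1, with the lowest log2 changes, lies 464 kb from that of chromosome IV. With 4 pairs, no relation to the distance was tested.

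Of 12 regulators of histone transcription, 3 rose, 1 fell and 8 did not pass (median log2 change 0.29), a share that passed close to the 32.5% of all features. Without scc2-4 replicate 2 or 3, 2 rose and none fell. SPT21, which acts with Spt10 in activating histone genes, rose 1.96-fold, from 4.29 ± 0.691 to 9.25 ± 0.696 RPKM (adjusted p = 0.00537, limma), and HIR1, a subunit gene of the HIR corepressor, rose 1.75-fold, from 8.67 ± 0.890 to 15.8 ± 1.55 RPKM (adjusted p = 0.00774, limma). SWI6, the subunit shared by SBF and MBF, fell 1.37-fold, from 25.9 ± 2.73 to 18.4 ± 1.13 RPKM (adjusted p = 0.0123, limma); it did not pass without scc2-4 replicate 2 or 3 (0.0562 and 0.0569; from 0.00810 over the alternatives). Of 25 G1/S genes, which are expressed in the same window of the cell cycle, 18 rose and none fell in limma (22 and 0 at an unadjusted p under 0.05; median 0.61), where 17.5% of all features rose. PRI1 on chromosome IX, for a subunit of DNA primase, rose 1.86-fold, and the G1 cyclin gene PCL1 2.31-fold. The log2 change of PRI1, 0.89, was near the median of 0.81 over all tested features of chromosome IX. Without chromosomes I and IX, 17 of 23 G1/S genes rose. Leaving out WT replicate 2 gave 10 rises among the G1/S genes, and leaving out scc2-4 replicates 1, 2 and 3 gave 8, 6 and 6. The part of the G1/S changes in the histone differences was not tested.

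Genes that handle histone proteins or RNA were read against the 17.5% of all features that rose and the 15.0% that fell. Of 15 genes for chaperones and assembly factors 3 rose, none fell (1 at an unadjusted p under 0.05, limma) and 12 did not pass (median log2 change 0.12). Examples are HIF1, a partner of the Hat1 acetyltransferase (1.36-fold), and RLF2, the large subunit gene of chromatin assembly factor 1 (1.44-fold). Of 10 SWR1 complex genes, SWC7 rose 1.44-fold, VPS71 fell 1.40-fold and 8 did not pass (median 0.059). None of 5 genes for histone protein turnover passed in limma (median 0.051), and 1 had an unadjusted p under 0.05; without WT replicate 3, 1 rose and 1 fell. Of 3 genes for nuclear RNA turnover, TRF5, a poly(A) polymerase gene of the TRAMP complex, rose 3.46-fold, from 3.81 ± 1.74 to 14.7 ± 0.886 RPKM (adjusted p = 0.00824, limma), and 2 did not pass. Without WT replicate 1 or 3, 2 of these 3 rose. HIF1 did not pass without scc2-4 replicate 2 or 3 (adjusted p = 0.0615 and 0.0593; from 0.00823 over the alternatives), nor RLF2 without scc2-4 replicate 1 or 2 (0.0561 and 0.0722; from 0.0124), and the chaperone genes that rose numbered 1, 0 and 1 without scc2-4 replicates 1, 2 and 3. Without WT replicate 3, 1 chaperone gene fell.

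Among modifying enzymes, 8 of 16 genes for histone methylation and ubiquitylation rose, 1 fell and 7 did not pass (median log2 change 0.35), where 17.5% of all features rose and 15.0% fell. BRE2 (1.46-fold) and SWD3 (1.43-fold, overlapping YBR174C), subunit genes of the COMPASS H3K4 methyltransferase, rose, and LGE1, the partner of the Bre1 ubiquitin ligase, fell 1.44-fold. Leaving out WT replicate 2 gave 5 rises in this list, and leaving out scc2-4 replicates 1, 2 and 3 gave 3, 2 and 2. Of 10 acetyltransferase genes 2 rose, 2 fell and 6 did not pass (median -0.022): SAS2 (1.34-fold) and HAT1 (1.36-fold), which acetylate H4, rose, and HAT2 (1.47-fold), the partner of Hat1, and EPL1 (1.53-fold), of the NuA4 complex, fell. Of 13 deacetylase genes 1 rose, 2 fell and 10 did not pass (median 0.0085): HST3, which removes acetyl groups from H3K56, rose 1.38-fold, and HOS3 (1.59-fold) and HDA3 (1.26-fold) fell. HOS3, BRE2 and SWD3 passed in every alternative run. Adjusted p without 1 library rose to 0.0979 for SAS2, 0.126 for HAT1, 0.0525 for HAT2, 0.0693 for EPL1, 0.0593 for HST3, 0.127 for HDA3 and 0.0721 for LGE1; the lowest over the alternatives were 0.0224, 0.0295, 0.00403, 0.00842, 0.00833, 0.0266 and 0.0112. Among acetyltransferases none rose without WT replicate 2 or scc2-4 replicate 2 or 3, 1 rose without scc2-4 replicate 1, and 1 fell when scc2-4 replicate 1, 2 or 3 was left out. Among deacetylases 2 rose without scc2-4 replicate 1, none rose without scc2-4 replicate 3, and 1 fell without WT replicate 2 or scc2-4 replicate 2 or 3.

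The features whose centred log2 levels over the 6 libraries were most like the mean of the 8 core genes were CWC27 (Pearson r = 0.994), CPD1 (0.992), TVP18 (0.990), YFR056C (0.990) and INP54 (0.989). This is a description over libraries that share 2 genotypes, and 690 of 6549 other features had r above 0.9. CWC27, the most alike, did not pass (log2 change -0.16 ± 0.081, adjusted p = 0.156, limma). CPD1 fell 1.71-fold, from 69.8 ± 11.0 to 40.0 ± 4.72 RPKM, and TVP18 1.69-fold, from 156 ± 19.5 to 90.6 ± 6.15 RPKM. YFR056C (-0.44, adjusted p = 0.0274, limma) and INP54 (-0.47, adjusted p = 0.0141) fell as well. The call of YFR056C ended without WT replicate 2 or scc2-4 replicate 1, 2 or 3 (0.0633, 0.0541, 0.0995 and 0.0786; from 0.0227 over the alternatives), and that of INP54 without scc2-4 replicate 2 or 3 (0.0629 and 0.0513; from 0.00881). YFR056C overlaps IRC7, so some of its reads may belong to that gene, and the extent of the overlap was not examined.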

How the data were processed

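The submitters' processing notes name Bowtie and the sacCer3 build; versions and the counting step are not stated there. The authors deposited RPKM for 7130 features. Multiplied by the feature's span in kilobases it sums to about 1000000 in each column, which makes it relative to reads assigned to the features listed. Low values were whole multiples of 1 read (100% of values worth up to 100 reads lay within 0.1 of a whole read), which gave the depths. All 10 histone genes matched the RefSeq R64 annotation in start and end, as did 99.8% of 6048 matched features. RPKM is no count, so values were taken as log2(RPKM + 1), centred on each library's median feature and, for the 6559 features whose mean RPKM reached 1, tested with limma 3.58.1 in R 4.3.3 (empirical Bayes with trend, Benjamini-Hochberg over all features, threshold 0.05). A fold change on this scale understates low genes. The median log2 change over features was 0.037 without centring and 0.047 with it. All adjusted p-values come from this test. Python 3.11.15 with scipy 1.17.1 gave the exact permutation tests. Replicate pairs differed by more than sampling noise (chi-square per degree of freedom 23.5 to 127). That replicates are separate cultures rests on the design text; otherwise p-values measure technical spread.

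The members, the gene lists and the tests were chosen with earlier results of these data known. Named besides the members were CSE4, the nearest protein-coding gene on each side, the 2 genes of smallest adjusted p in each direction per list, and the 5 features most like the core histone mean.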

Additional observations from a re-analysis of the deposited data

How the results depend on the processing

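All 10 histone genes had a log2 change below 0 in every alternative run, and HTA1 and HTB1 passed in each. The count of members that fell was 2 to 4 when 1 library was left out. Over all features the count was 2133, and 766 to 2442 with 1 library left out. HHT2 did not pass with quantile normalization (log2 change -0.45, adjusted p = 0.0598), and its change was -0.48 to -0.34 with 1 library left out. HHF2 passed with no filter on low values (-0.34, adjusted p = 0.0474) and with no trend (-0.33, adjusted p = 0.0406), with -0.36 to -0.28 when 1 library was left out. Signs turned for CSE4 (-0.021 to 0.15 with 1 library left out) and ECM15 (-0.11 to 0.14, 0.0087 with quantile normalization and 0.017 without chromosomes I and IX); the cause was not tested. Libraries that share a replicate number did not all deviate together (correlations 0.31, -0.062 and 0.35). WT replicates 1 and 3 correlated best with the scc2-4 library of the same number, and WT replicate 2 with scc2-4 replicate 3 (0.26). These values do not settle whether the numbers pair the samples, and the main fit took them as unpaired. With the replicate block 2341 features passed, and 3 members fell, the same genes; NAN1 passed (0.75, adjusted p = 0.0375). Leaving out a library also lowers the power.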
